A study of Mus musculus with 12 samples.

Results

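Ccdc86 and Depp1, 2 of the 7542 genes named on the array, are described here in the mouse hippocampus 1 h after kainate. Each was measured by 1 probe set, and these 2 of 12411 probe sets are all that the platform annotation assigns to either gene alone. Both genes were picked because their kainate responses in the mutant were already known, so their levels and responses are given as a description and without a test, except where the contrast was not the one they were picked on. The values that singled them out were those of 11 probe sets called higher with kainate in labelled mutant arrays, to which both belong, and of 4 called between the genotypes after kainate, to which Ccdc86 belongs.

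Expression was measured on 12 Affymetrix MG-U74B arrays, 3 for each of 4 groups, which were labelled mutant animals with kainate, labelled mutant animals with saline, control animals with kainate and control animals with saline. The mutation is known here from the series title, which names the loss of CREB and CREM, a pair of cAMP-responsive transcription factors. The labels do not name the alleles, the cell type in which they were lost or the strain. Mice of both sexes, littermates 5 to 6 weeks old, were injected with 20 mg/kg kainate, an agonist of a class of glutamate receptors that evokes seizures, or with saline. Each array carried hippocampal RNA pooled from 3 animals, so the spread between arrays is that between pools.

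Ccdc86, also called cyclon, encodes a coiled-coil protein of the nucleolus, the compartment in which ribosomal RNA is made and ribosomes are assembled, and in dividing human cells the protein coats mitotic chromosomes together with Ki-67. Depp1 encodes a small protein first described as induced by progesterone in the decidua, and its transcription is activated by FOXO factors, which enter the nucleus when insulin and growth factor signalling through Akt is low. Human DEPP1 protein has been linked to autophagy and to the handling of hydrogen peroxide at peroxisomes and mitochondria. In the mouse, Depp1 is also known from vascular endothelial cells and as a transcript that fasting raises in several organs.

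The promoters of both genes are shown because the mutation removes factors that bind the cAMP response element, and because FOXO factors are known to act on Depp1. The windows run from 250 bases before to 50 bases after the annotated start of transcription, from RefSeq on GRCm38.p6. That of Ccdc86 is chr19:10949217-10949516 on the minus strand and that of Depp1 is chr6:116650434-116650733 on the plus strand. Capitals mark matches to the motifs searched, and both sequences are written 5′ to 3′ along the gene.
Ccdc86: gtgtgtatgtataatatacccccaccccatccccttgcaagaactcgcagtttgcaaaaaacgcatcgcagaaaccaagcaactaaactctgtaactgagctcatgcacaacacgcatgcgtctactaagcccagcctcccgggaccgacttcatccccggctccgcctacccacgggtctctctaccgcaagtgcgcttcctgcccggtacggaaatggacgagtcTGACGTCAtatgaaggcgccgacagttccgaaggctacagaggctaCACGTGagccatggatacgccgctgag
Depp1: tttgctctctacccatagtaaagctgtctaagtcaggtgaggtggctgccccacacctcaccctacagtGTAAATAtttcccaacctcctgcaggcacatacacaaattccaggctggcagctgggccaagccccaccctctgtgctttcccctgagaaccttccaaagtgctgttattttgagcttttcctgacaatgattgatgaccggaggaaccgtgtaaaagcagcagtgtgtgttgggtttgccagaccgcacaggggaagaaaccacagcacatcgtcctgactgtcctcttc

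The Ccdc86 window held the full cAMP response element TGACGTCA from base -23 to base -16, counting the start base as 0. This palindrome was found in 1.79% of the 32851 promoter windows of the same length, searched on both strands. Its left and right parts, TGACG and CGTCA, account for both matches of the shorter motif TGACG in the window, and 20.8% of all windows hold that shorter motif on either strand. The same window held the E-box CACGTG, the sequence bound by Myc family factors, from base 23 to base 28, and 7.15% of all windows held it. The Depp1 window held none of these motifs.

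The AP-1 motif TGANTCA and the FOXO core GTAAACA were found in neither window, against 7.81% and 3.65% of all windows, both strands searched. A wider FOXO core, GTAAANA, was added after the sequences had been seen. It matched once in the Depp1 window, as GTAAATA from base -181 to base -175, and 12.4% of all windows held it. These matches describe letters in a short window and say nothing of binding.

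The targeted genes and the array measures were examined across the series. The Creb1 probe set lay between 7.64 and 8.47 (log2 value) in labelled mutant arrays with kainate, between 8.10 and 8.33 in labelled mutant arrays with saline, between 6.83 and 7.14 in control arrays with kainate and between 6.94 and 7.58 in control arrays with saline, so it was higher and not lower in the mutant. Crem lay between 2.82 and 3.35 on all arrays. The position of these probes relative to any deleted part is unknown here. They therefore do not check the labels, and the arrays are called labelled mutant. Array medians lay between 3.77 and 4.07, and 3′ minus 5′ signals of Actb control probes lay between 1.44 and 1.82 with ranges that overlapped between the groups. Of 22 neuron markers 10 passed the filter on low values, among them Rbfox3, Syt1 and Slc17a7, on arrays labelled hippocampus.

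Ccdc86 was about 1.91-fold higher with kainate than with saline in labelled mutant hippocampus, while its values overlapped between the treatments in control hippocampus. Its log2 values were 6.47, 6.74 and 6.90 in labelled mutant arrays with kainate (6.70 ± 0.218, SD, n = 3). They were 5.87, 5.77 and 5.67 in labelled mutant arrays with saline (5.77 ± 0.0987, SD, n = 3). All 3 kainate arrays lay above all 3 saline arrays, which held for 3.66% of the 6334 tested probe sets in this direction. The fitted difference was 0.94 (1.91-fold, SE 0.138), the 29th highest of 6334, where 0.174% of probe sets were called by limma at a Benjamini-Hochberg adjusted p under 0.05.

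In control hippocampus the Ccdc86 values were 5.43, 5.61 and 5.53 with kainate (5.53 ± 0.0898, SD, n = 3). With saline they were 5.35, 5.59 and 5.68 (5.54 ± 0.171, SD, n = 3). The groups overlapped throughout, and the fitted difference was -0.02 (SE 0.138), rank 3533 of 6334 from the highest. This difference is smaller than the shift that scaling can make. Array medians of controls were on average 0.14 higher with kainate, and centring each array on its median turned the Ccdc86 value into -0.16, whereas quantile normalization gave 0.04.

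**Figure D1:**
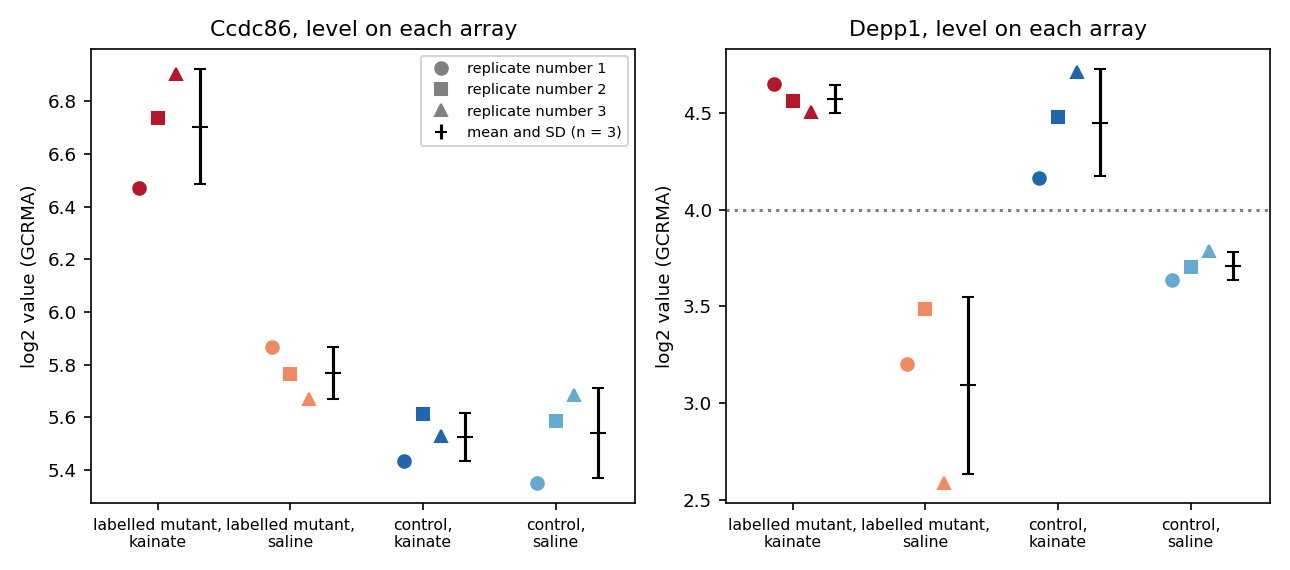
Log2 values of Ccdc86 (left) and Depp1 (right) on each of the 12 arrays by group, with the symbol giving the replicate number and black bars the group mean and SD (n = 3). The 3 labelled mutant kainate arrays of Ccdc86 (6.47 to 6.90) lie above the other 9 arrays, and every kainate array of Depp1 lies above the dotted line at 4, the level required for testing, with every saline array below it.

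The labelled mutant kainate group also stood above the control kainate group for Ccdc86, by 1.18 (2.26-fold, SE 0.138), the 8th highest difference of 6334. The values did not overlap between these groups, as for 3.09% of tested probe sets in this direction. The share called higher or lower in this contrast was 0.0632%. The 4 probe sets behind that share were those of Ccdc86 and Dusp4, both higher, and of Spty2d1 and Nbdy, both lower. Ccdc86 was picked with this call known, so the call is no test of it. Without the control kainate array numbered 1, 2 or 3, 0 probe sets were called higher in this contrast. The same held without the labelled mutant kainate array numbered 3 and in the fit of only these 2 groups.

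For Ccdc86 the lowest of the 3 labelled mutant kainate arrays exceeded the highest of the other 9 arrays by 0.60. A probe set with all 3 labelled mutant kainate arrays above the other 9 was found 36 times, in 0.568% of those tested. Ranked by the width of that gap, Ccdc86 was in place 2, after a probe set of Dusp4, a MAP kinase phosphatase, with a gap of 1.04. The second tested probe set of Dusp4 had the larger kainate difference in control arrays, 0.39 against 0.19 in labelled mutant arrays. Rgs4, a regulator of G protein signalling, came in place 3 with 0.27.

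With saline alone, Ccdc86 was at 5.77 ± 0.0987 in labelled mutant arrays and 5.54 ± 0.171 in control arrays (SD, n = 3 each). The values overlapped, and the difference of 0.23 (1.17-fold, SE 0.138) did not pass (limma adjusted p = 1.00). Limma called 0% of probe sets in this contrast, with an unadjusted p under 0.05 for 246 of the 6334 tested, a share below 0.05. This contrast is not the one Ccdc86 was picked on, but its arrays are not independent of that choice. Its labelled mutant arrays enter the kainate response in that genotype, and the saline arrays of both genotypes enter the difference of responses. The adjusted p is therefore no independent test of the gene. With the replicate number as a block the adjusted p was 0.621.

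Depp1 was higher with kainate in both genotypes, with the larger difference in labelled mutant hippocampus. Its log2 values were 4.65, 4.56 and 4.51 in labelled mutant arrays with kainate (4.57 ± 0.0714, SD, n = 3). They were 3.20, 3.48 and 2.59 in labelled mutant arrays with saline (3.09 ± 0.458, SD, n = 3). The groups did not overlap, as for 3.66% of tested probe sets in this direction, and the saline array numbered 3 was the lowest of all 12. The fitted difference was 1.48 (2.79-fold, SE 0.203), the 7th highest of 6334, and it was 1.23 without that saline array.

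In control hippocampus the Depp1 values were 4.16, 4.48 and 4.71 with kainate (4.45 ± 0.275, SD, n = 3). With saline they were 3.64, 3.70 and 3.78 (3.71 ± 0.0739, SD, n = 3). The groups did not overlap here either, which held for 13.1% of tested probe sets in this direction. The fitted difference was 0.74 (1.67-fold, SE 0.203), the 45th highest of 6334, and 0.158% of probe sets were called in this contrast.

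All 6 kainate arrays of Depp1 lay above all 6 saline arrays, with a gap of 0.38. This order was found for 45 probe sets (0.710% of those tested), and by the width of the gap Depp1 was in place 12. Dusp5, Maff, Csrnp1 and Trib1, which are known early response genes, held the first 4 places with gaps of 2.10, 1.52, 1.26 and 1.26. The level of 4 or more that testing required in at least 3 arrays was reached by Depp1 in the 6 kainate arrays and in 0 saline arrays. It therefore entered the tested set through the groups in which it is high, and its fold changes rest on saline values below that level.

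After kainate the Depp1 values of both genotypes overlapped, with 4.57 ± 0.0714 in labelled mutant arrays and 4.45 ± 0.275 in control arrays (SD, n = 3 each). The difference was 0.12 (SE 0.203). By replicate number it was 0.49, 0.08 and -0.20, so its sign was not shared.

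With saline Depp1 was lower in labelled mutant arrays, 3.09 ± 0.458 against 3.71 ± 0.0739 in control arrays (SD, n = 3 each), without overlap of the values. Such separation downward was found for 4.33% of tested probe sets. The difference was -0.62 (1.53-fold, SE 0.203). It is given without a test, since Depp1 reached the level required for testing in 0 saline arrays and the labelled mutant saline arrays also enter the response the gene was picked on. It was -0.37 without the labelled mutant saline array numbered 3, the one at 2.59.

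The question of the series title is whether the response to kainate depends on CREB and CREM, and both genes had a larger difference in labelled mutant than in control arrays. For Ccdc86 the kainate minus saline difference by replicate number was 0.60, 0.97 and 1.23 in labelled mutant arrays. In control arrays it was 0.08, 0.03 and -0.16. Each labelled mutant value lay above each control value, which held for 3.57% of the 6334 tested probe sets. The difference of the responses was 0.95 (SE 0.196), the 14th highest of 6334.

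For Depp1 the same difference was 1.45, 1.08 and 1.92 in labelled mutant arrays, and 0.52, 0.77 and 0.92 in control arrays. Again each labelled mutant value lay above each control value, the order found for 3.57% of tested probe sets, and all 6 saline values behind these differences lie below 4. The difference of the responses was 0.74 (SE 0.287), the 41st highest, and by replicate number it was 0.92, 0.30 and 0.99. Without the labelled mutant saline array numbered 3 it was 0.49, a change of more than 1.5 times. Over all probe sets limma called 0% for the difference of responses. The unadjusted p was under 0.05 for 147 of the 6334, a share below 0.05.

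**Figure D2:**
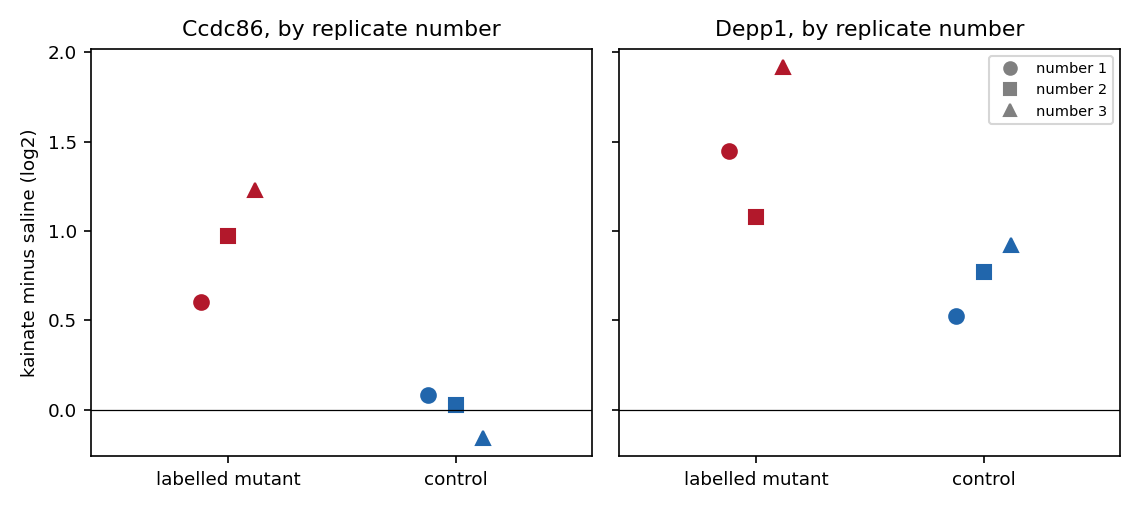
Kainate minus saline difference (log2) of Ccdc86 (left) and Depp1 (right) within each replicate number, with labelled mutant arrays in red and control arrays in blue. Ccdc86 runs from 0.60 to 1.23 in labelled mutant arrays and from -0.16 to 0.08 in control arrays, and the Depp1 points lie above 0 in both genotypes.

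The overlap of the genotypes ran opposite ways in the 2 genes. For Ccdc86 the saline groups overlapped and the kainate groups did not, whereas for Depp1 the kainate groups overlapped and the saline groups did not. The Ccdc86 saline overlap was narrow, with the lowest labelled mutant value at 5.67 and the highest control value at 5.68. The Depp1 saline values all lie below the level required for testing. Separation upward after kainate was found for 3.09% of tested probe sets, and downward with saline for 4.33%. The 2 probe sets correlated with r = 0.43 over the 12 arrays, or 0.42 without removal of the mean of each replicate number, as a description of points that share groups and pools.

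**Figure D3:**
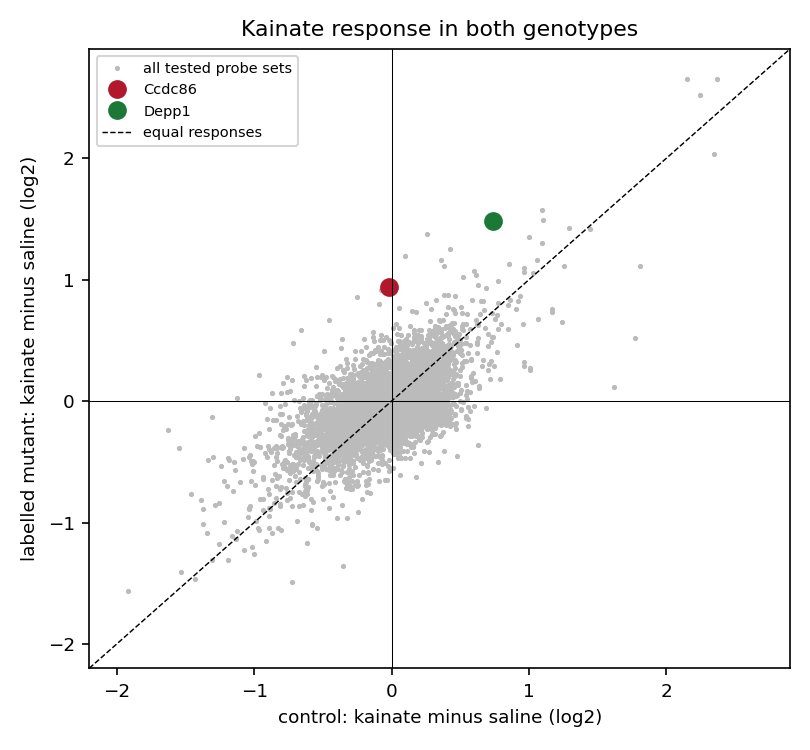
Kainate minus saline difference (log2) in control arrays (horizontal) and in labelled mutant arrays (vertical) for all 6334 tested probe sets in grey, with the dashed line marking equal responses. Ccdc86 lies at -0.02 and 0.94, on the vertical axis line, and Depp1 at 0.74 and 1.48, above the dashed line.

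Markers of cell types were measured beside these values, since in bulk tissue fewer cells of a type and less RNA per cell cannot be told apart. Each summed level adds unlogged values, so the brightest probe sets weigh most in it and it need not follow most genes of its list. The summed level of 5 measured microglia markers of 19 listed ran from 9.22 to 9.62 (log2) in labelled mutant arrays with kainate and from 9.0 to 9.42 with saline. It ran from 8.72 to 8.74 in control arrays with kainate and from 8.57 to 8.73 with saline, so the genotypes did not overlap with either treatment. All 5 genes lay above 0 in labelled mutant against control arrays after kainate, and all 5 for kainate against saline in labelled mutant arrays, with 0 calls. The summed ranges of kainate and saline overlapped within labelled mutant arrays.

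The summed level of 13 measured astrocyte markers of 20 did not overlap between genotypes with either treatment. Its brightest member was Slc1a2, with group means from 13.07 to 13.24. It was 13.98 to 14.05 in labelled mutant kainate arrays against 13.73 to 13.94 in control kainate arrays, with 9 of 13 genes above 0. With saline it was 14.02 to 14.14 in labelled mutant arrays against 13.85 to 13.89 in control arrays, with 12 of 13 genes above 0, in the contrast in which Depp1 was lower.

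The 10 measured neuron markers of 22 gave sums of 13.79 to 13.99 in labelled mutant arrays with kainate, 13.88 to 13.90 in labelled mutant arrays with saline, 13.81 to 13.89 in control arrays with kainate and 13.93 to 13.97 in control arrays with saline. These sums were lower without overlap in labelled mutant than in control saline arrays, as Depp1 was, and lower in control kainate than in control saline arrays, where Depp1 was higher. The brightest members were Syt1, with differences of 0.01 and -0.06 in these contrasts, and Nefl, with -0.18 and -0.26. In both contrasts 4 of the 10 genes lay above 0. With the block, Bcl11b passed as lower in labelled mutant saline arrays (-0.91, limma adjusted p = 0.0423), where 0.142% of all probe sets were called. Its other tested probe sets had 0.04 and -0.49 in that contrast. The 3 measured choroid plexus markers of 16 gave 7.85 to 8.49 in labelled mutant arrays with kainate, 7.52 to 8.97 in labelled mutant arrays with saline, 7.34 to 8.17 in control arrays with kainate and 8.37 to 8.44 in control arrays with saline. Their sums were thus also lower without overlap in control kainate than in control saline arrays, with 1 of 3 genes above 0.

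The 7 measured endothelial markers of 26 gave 9.35 to 9.68 in labelled mutant arrays with kainate, 9.45 to 9.72 in labelled mutant arrays with saline, 9.26 to 9.44 in control arrays with kainate and 9.38 to 9.78 in control arrays with saline. These endothelial ranges overlapped in every contrast, as did those of 4 measured oligodendrocyte markers of 19. The part of these cell types in the levels of Ccdc86 and Depp1 was not tested.

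Of 150 genes listed for ribosome biogenesis and the nucleolus, 70 were on the array and 47 were tested, and 0 passed in either direction in any of the 5 comparisons by limma, with or without the replicate number as a block. Over all probe sets the share called without the block was also small, at 0.174% for kainate in labelled mutant arrays, 0.158% for kainate in control arrays, 0.0632% between genotypes after kainate and 0% with saline and for the difference of responses, so that a list of this size with 0 calls does not stand apart from it. The block raised the share called to 0.363% for kainate in labelled mutant arrays, 0.584% for kainate in control arrays, 0.111% between genotypes after kainate and 0.142% with saline. The median kainate difference of the list was -0.07 in labelled mutant arrays, against -0.04 over all tested probe sets, and 15 of 47 genes lay above 0. In control arrays the median was 0.05, against 0.02 over all. The largest differences in labelled mutant arrays were 0.51 for Pdcd11, an rRNA processing factor, -0.51 for Utp6, a subunit of the small subunit processome, and 0.48 for Aatf, which acts in early maturation of the small ribosomal subunit. In control arrays Pdcd11 had -0.20, Utp6 -0.60 and Aatf 0.45. A second Utp6 probe set gave 0.05 in labelled mutant arrays and 0.13 in control arrays.

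Among 14 proteins of the mitotic chromosome periphery 4 were tested and 0 passed. In labelled mutant arrays the kainate difference was -0.39 for Nifk, which binds Ki-67, 0.22 for Nol6 and 0.02 for Rrp1b. In control arrays it was -0.67 for Nifk, 0.47 for Nol6 and 0.20 for Rrp1b. For RNA polymerase I only Twistnb, a polymerase subunit gene, and Ubtf, which encodes a binding factor of the ribosomal DNA promoter, were tested of 25 listed. Twistnb had -0.30 in labelled mutant arrays and -0.16 in control arrays, and Ubtf had 0.11 in labelled mutant arrays and 0.45 in control arrays. Of 13 genes of the Myc network 2 were tested, and the repressor genes Mxd4 and Mxd1 had -0.15 and 0.01 in labelled mutant arrays and -0.27 and -0.09 in control arrays, with 0 calls. Most genes of these shorter lists were not tested, so they were compared only in part.

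Of 68 genes listed as FOXO targets 13 were tested, and 0 passed without the block, against the same 0% to 0.174% of all probe sets. Their median kainate difference was -0.08 in labelled mutant arrays and -0.08 in control arrays, against -0.04 and 0.02 over all tested probe sets. Rictor, a subunit of mTOR complex 2, had -0.50 in labelled mutant arrays and -1.02 in control arrays. The control difference of Rictor passed with the block (limma adjusted p = 0.0263), where 0.316% of all probe sets were called lower. Pik3ip1, an inhibitor of PI3 kinase, had 0.24 in labelled mutant arrays and -0.14 in control arrays, and its 3 other tested probe sets lay between -0.04 and 0.04 in labelled mutant arrays. Plxdc2 had -0.21 in labelled mutant arrays and 0.01 in control arrays.

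Of 25 FOXO factors and kinases acting on them 11 were tested, with 0 calls in the 5 comparisons, against 0% to 0.174% of all probe sets. In labelled mutant arrays the kainate difference was -0.57 for the insulin receptor substrate gene Irs1, -0.27 for the PI3 kinase subunit gene Pik3r1 and 0.14 for the insulin receptor gene Insr. In control arrays it was -0.58 for Irs1, -0.11 for Pik3r1 and -0.38 for Insr. Second probe sets gave 0.02 for Pik3r1 and -0.14 for Insr in labelled mutant arrays.

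Of 39 listed autophagy genes 10 were tested, with 0 calls for kainate against 0.174% of all probe sets in labelled mutant arrays and 0.158% in control arrays. In labelled mutant arrays Atg9a had 0.28, Rb1cc1 -0.28 and Atg2b -0.22, and in control arrays Atg9a had 0.40, Rb1cc1 -0.26 and Atg2b -0.04. A second Atg2b probe set gave 0.23 in labelled mutant arrays. Of 12 tested peroxisome-linked genes of 45, Acsl4, an acyl-CoA synthetase, had -0.26 in labelled mutant arrays and fell by 0.96 in control arrays (limma adjusted p = 0.0237, with 0.0158% of all probe sets called lower). The peroxisome list had a median kainate difference of -0.02 in labelled mutant arrays, against -0.04 over all tested probe sets. In control arrays its median was -0.17, against 0.02 over all, and 3 of 12 genes lay above 0.

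Only Nr3c1, the glucocorticoid receptor gene, and Klf9 were tested among 28 genes responsive to glucocorticoids or progestins, with 0 calls. Nr3c1 had -0.19 in labelled mutant arrays and -0.75 in control arrays, and its probe sets disagreed in sign. The 2 others gave -0.45 and 0.34 in labelled mutant arrays and, in the same order, -0.46 and 0.58 in control arrays. The last of these was among the 45 probe sets with all 6 kainate arrays above all 6 saline arrays. Klf9 had 0.09 in labelled mutant arrays and 0.02 in control arrays.

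Immediate early transcription factors served as the measure of the early response. The list was chosen with earlier results of these data known, so its calls are no independent test. Of 32 listed 9 were tested, and 3 passed upward in each genotype. In labelled mutant arrays these were Maff at 2.65, Csrnp1 at 2.04 and Fosl2 at 1.06, with 0.174% of all probe sets called higher. In control arrays they were Maff at 2.15, Csrnp1 at 2.34 and Fosl2 at 1.03, with 0.142% called higher. With the block 4 of the 9 passed in labelled mutant and 5 in control arrays, against 0.284% and 0.268% of all probe sets. Both counts include Fbxo33, a listed gene that encodes an F-box protein and not a transcription factor. Its limma adjusted p with the block was 0.00872 in labelled mutant and 0.0190 in control arrays. The median of the list was 0.48 in labelled mutant arrays and 0.70 in control arrays, against -0.04 and 0.02 over all tested probe sets. Over all 12 tested probe sets of these genes it was 0.66 and 0.72. Srf is represented by a probe set at -0.69 in labelled mutant and -0.17 in control arrays. Its other tested probe sets gave 0.73 and 0.60 in labelled mutant arrays and 0.73 and 0.68 in control arrays. For the difference of responses 0 of 9 passed.

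**Figure D4:**
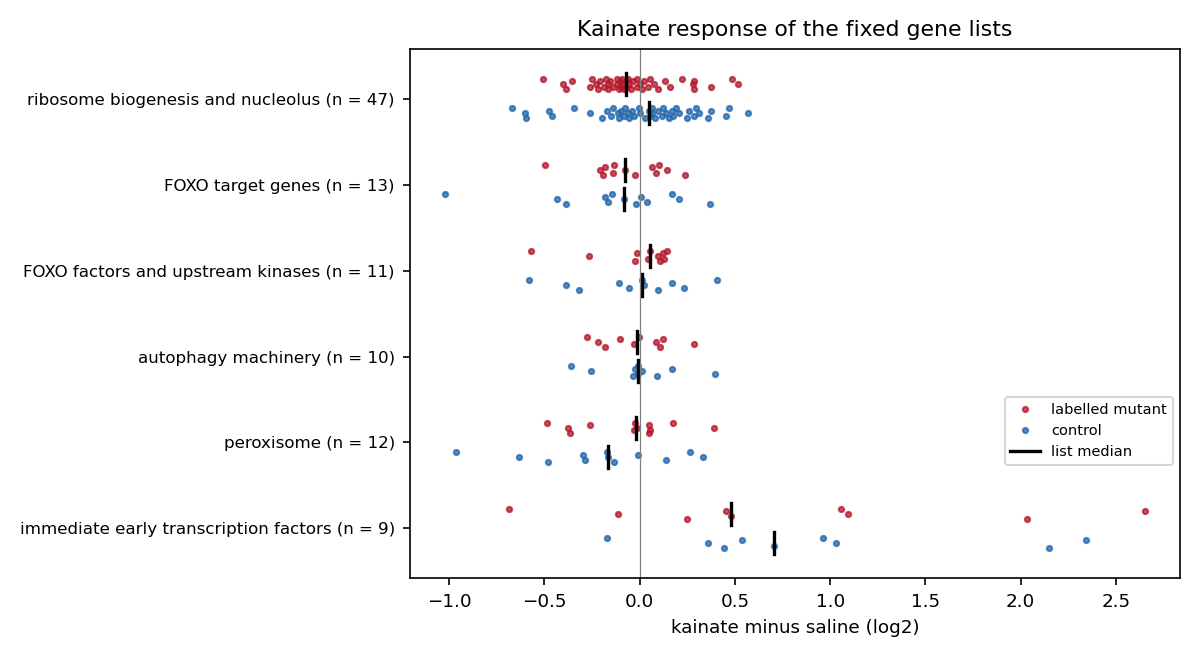
Kainate minus saline difference (log2) of every tested gene of 6 fixed lists, 1 point per gene, with labelled mutant arrays in red above control arrays in blue and a black bar at each list median. The lists on the nucleolus, FOXO and autophagy centre near 0. The peroxisome list centres at -0.02 in labelled mutant and at -0.17 in control arrays. The immediate early factors are shifted upward, with medians of 0.48 and 0.70.

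The probe sets with the course most like that of Ccdc86 were sought by Pearson correlation over the 12 arrays after the mean of each replicate number was subtracted. The 5 closest belonged to Dock1 (r = 0.96), Pde3b (0.94), Dusp4 (0.94), Hspb6 (0.93) and Ctc1 (0.90). As background, Dock1 encodes an activator of Rac, Pde3b a cyclic nucleotide phosphodiesterase, Hspb6 a small heat shock protein and Ctc1 a telomere maintenance factor. Their kainate differences in labelled mutant arrays ran from 0.45 (Ctc1) to 1.37 (Dusp4), and those in control arrays from -0.07 (Pde3b) to 0.26 (Dusp4). Such a course follows from their choice by correlation with Ccdc86. Only Dusp4 passed for kainate in labelled mutant arrays (limma adjusted p = 0.00383), and no gene of the 5 passed for the difference of responses. Hspb6 was already higher with saline, at 5.79 in labelled mutant and 5.09 in control arrays.

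The other tested probe sets of these genes correlated less. The second probe set of Dusp4 had r = 0.38, with a kainate difference of 0.19 in labelled mutant and 0.39 in control arrays. The other tested probe sets of Pde3b had r = 0.16 and -0.15, and those of Ctc1 from -0.08 to 0.22. The probe sets named here for Pde3b and Ctc1 carry the suffix f, which marks probes shared within a sequence family. With the values as deposited, Dusp4 (r = 0.93), Hspb6 (0.87) and Ctc1 (0.86) stayed among the 5 closest, joined by Elmo1 (0.89), which encodes a partner of Dock1 in Rac activation, and Fancl (0.87).

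For Depp1 the 5 closest were D130020L05Rik (r = 0.95), Apba1 (0.95), Sh3d19 (0.94), Cdh13 (0.92) and Vgf (0.91). Apba1 encodes a synaptic adaptor protein, Cdh13 a cadherin anchored in the membrane by a lipid, and Vgf a precursor of secreted neuropeptides. All 5 shared with Depp1 a higher mean with kainate in both genotypes and a lower mean in labelled mutant than in control saline arrays. Their choice by correlation over these same arrays favours such sharing. For D130020L05Rik the saline difference between genotypes was only -0.06. The Cdh13 probe set carries the suffix f, and its kainate difference was 0.74 in labelled mutant and 0.15 in control arrays. The other tested Cdh13 probe sets (r = 0.82 and 0.78) had 0.27 and 0.17 in labelled mutant arrays. In control arrays they had 0.24 and 0.19, so they did not share the larger labelled mutant difference. Among the 5 only Vgf passed for kainate in labelled mutant arrays (limma adjusted p = 0.0247), and the other comparisons gave no call. For Vgf the kainate difference was 1.35 in labelled mutant and 1.00 in control arrays, and the genotypes differed by -0.35 with saline.

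With the values as deposited, Vgf was closest to Depp1 (r = 0.89), followed by Fosl2 (0.88), Trib1 (0.88), Csrnp1 (0.87) and Dusp5 (0.85), all of them genes of the early response to activity. Of the 5 named first only Vgf stayed. The correlations are descriptions of 12 arrays that share groups and replicate numbers.

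**Figure D5:**
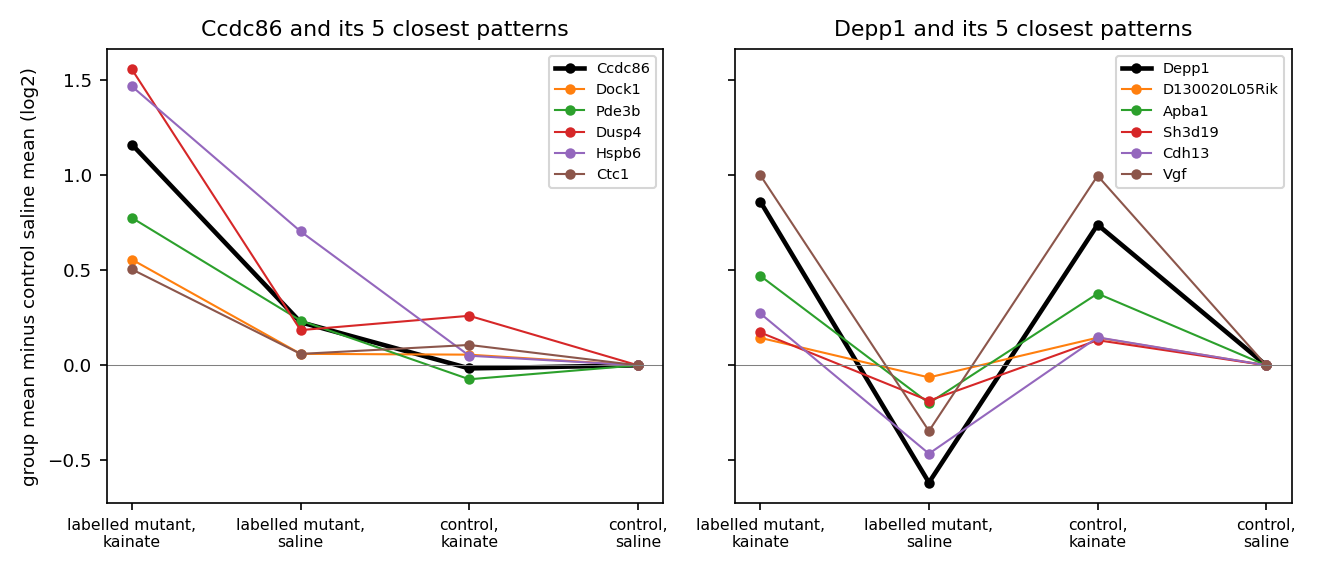
Group means relative to the control saline mean (log2) of Ccdc86 (left, black) and Depp1 (right, black), each with the 5 probe sets closest to it in course over the 12 arrays. The Ccdc86 set is highest in labelled mutant arrays with kainate, and the Depp1 set is high in both kainate groups and lowest in labelled mutant arrays with saline.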

How the data were processed

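Per the submitters' processing notes, the authors made the deposited values with GCRMA in R 2.4.1. GCRMA summarises the probes of a set after a background correction by probe sequence, and the log2 scale of the values was judged from their range. The settings of that step are unknown here, and raw scanner data were not analysed here. Of 12477 entries, 66 control probe sets were left out. The platform annotation gave 1 symbol for 10581 of the remaining 12411 probe sets, several for 178 and none for 1652. Probe sets over 4 in at least 3 of 12 arrays were tested (6334).

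With limma 3.58.1 (R 4.3.3), 1 linear model of the 4 group means was fitted to the 12 arrays (eBayes with intensity trend, Benjamini-Hochberg at 0.05), and was tested on simulated data. For Ccdc86 and Depp1 its differences and SE are given, and a p only for Ccdc86 in the genotype contrast with saline. A gene of a list is represented by its tested probe set with the highest mean.

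Arrays of the 4 groups share the replicate numbers 1 to 3. All 18 pairs with the same number in different groups had deviations correlated above 0.1 (r from 0.36 to 0.88), so the number was used as a block in an alternative fit. The labels call the replicates biological and do not explain the number. The genes, lists and tests were chosen with earlier results of these data known. Genes named from a list are those that passed in any comparison, or otherwise the 3 with the largest kainate difference in labelled mutant arrays. The motif matches were counted in RefSeq promoter windows of GRCm38.p6. Alternatives were the block, centring, quantile normalization, other filters, no trend, fits of 2 groups and leaving out each array. The fit without replicate number 1 in every group was added after the data were seen.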

Additional observations from a re-analysis of the deposited data

How the results depend on the processing

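The Ccdc86 and Depp1 differences kept their size within the spread between replicates under the block, the scalings, the filters and the fits without trend or with 2 groups, with these exceptions. The difference of responses of Ccdc86 was 1.14 with each array centred on its median, against 0.95 as reported. Without replicate number 1 in every group it was 1.17, and the kainate difference of Ccdc86 in labelled mutant arrays was 1.10 against 0.94. The block leaves these differences as they are, and it did not change the saline call of Ccdc86. With a filter at 5 Depp1 was not tested.

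The counts of probe sets called moved more. With the replicate number as a block 23 were called for kainate in labelled mutant arrays against 11, 37 against 10 in control arrays, 7 against 4 between genotypes after kainate and 9 against 0 with saline. Fits of the 2 groups compared gave 2, 4, 0 and 1 in the same order, and fits without number 1 gave 600, 635, 12 and 5. With each array left out in turn the counts ran from 6 to 17, from 4 to 14, from 1 to 5 and from 0 to 1. For the difference of responses, which a fit of 2 groups cannot give, 0 were called in each of the other fits.

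Leaving out 1 array at a time, the difference of responses lay between 0.85 and 1.07 for Ccdc86 and between 0.49 and 0.94 for Depp1, whose lowest value came without the labelled mutant saline array numbered 3. The kainate difference of Depp1 in labelled mutant arrays lay between 1.23 and 1.68. With saline the adjusted p lay between 0.861 and 1.00 for Ccdc86. The cause of these changes was not tested. With 1 probe set per gene and 3 pools per group, no second measurement of either transcript was used here, and Depp1 with saline lies below the level required for testing.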

Other observations

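The genes lying next to Ccdc86 and Depp1 on their chromosomes offered no measured comparison. Of the 10 nearest protein-coding genes of Ccdc86 on chromosome 19, 5 on each side, 2 were on the array (Tmem132a and Ms4a8a), and of those of Depp1 on chromosome 6, 1 was (Cxcl12). None of these 3 genes reached the level required for testing. This look at neighbours was added after the data were seen.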
